A study of Aspergillus nidulans FGSC A4 with 21 samples.

Results

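Genes of the nucleolus and of ribosome assembly were followed in *Aspergillus nidulans* FGSC A4, a wild-type strain, exposed to the polycyclic aromatic hydrocarbon benzo(a)pyrene (BaP). Members were the genes whose description contains "rRNA", "ribosom" or "nucleol", without those whose description also mentions farnesol, a transporter, a permease or a transcription factor. They number 92 of the 2403 genes that appear in at least 1 of the 3 tables. Of these, 9 are nonribosomal peptide synthetases, which make secondary metabolites without a ribosome and share only letters with the search word. They are described apart from the other 83 members, and counts of all listed members include them unless a count without them is named.

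Hyphae were grown for 18 h at 37 °C in minimal medium with 1% glucose, washed, and moved to minimal medium with 0.1% glucose. BaP-treated cells received 200 µM BaP dissolved in DMSO and controls received an equal volume of DMSO, so low glucose and DMSO were common to both groups. Hyphae were collected at 6, 24 and 48 h, with 3 libraries of polyadenylated RNA per treatment and time, 18 libraries in all, and the 3 samples of the start are not used here. The labels do not say whether replicate numbers mark separate cultures, so p-values measure the spread between these samples, which are called cultures from here on. Libraries keep their column names, in which B marks BaP and D marks DMSO: B16 to B18 and D19 to D21 at 6 h, B22 to B24 and D25 to D27 at 24 h, and B28 to B30 and D31 to D33 at 48 h. Values for a group are given in that order.

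Ribosomes are built mainly in the nucleolus. RNA polymerase I transcribes the ribosomal DNA into a long precursor, from which a large assembly called the small-subunit processome cuts and folds the small-subunit rRNA. Small nucleolar ribonucleoproteins (snoRNPs) guide methylation and pseudouridylation of the rRNA, and further assembly factors mature the large subunit and carry both subunits out of the nucleus. In fungi, transcription of these genes is known to follow nutrient supply and growth. Mitochondria build a ribosome of their own from nuclear-encoded proteins.

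The descriptions placed the 83 members in steps. Polymerase I transcription had 1 member, the small subunit 12, the large subunit 15, both subunits 2, and rRNA modification with snoRNPs 6. A further 26 were placed in the nucleolus or tied to rRNA with no step stated. These 6 classes together hold 62 genes and are called the nucleolar genes below. The name is a short label, since not every description names the nucleolus. Many do not, including several in the small-subunit and large-subunit classes. Examples are AN1875, AN5789, AN5871 and AN8834, and the rRNA methyltransferase AN10940 is placed in the mitochondrion. The mitochondrial ribosome had 13 members, and 8 were named only for a location at, or binding to, ribosomes. Of the members described as a structural part of a ribosome, 7 of 8 belonged to the mitochondrial one, and the other was *nsa2*, described as a putative 60S protein and known in *Saccharomyces cerevisiae* as a large-subunit assembly factor.

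Each table lists only genes that the authors kept as differentially expressed at that time, on these same libraries. A gene that is missing from a table has no value at that time, and passing a test among listed genes is no independent evidence. Library sizes recovered from the values ran from 5.97 to 13.7 M reads with a median of 9.54 M, and depth and treatment cannot be told apart at 6 and 48 h, where the BaP libraries were all below the DMSO libraries in size. Values are RPKM, reads per kilobase of transcript per M reads (M, mega). The nucleolar genes had a median of 497 reads in BaP and 146 in DMSO at 24 h, and 426 and 164 at 48 h. A gene was counted as risen or fallen when its log2 fold change, on the log2(RPKM + 1) scale, was over 1 or under -1 with a limma adjusted p under 0.05 over all genes of that table. Fewer cells of a type and less RNA per cell cannot be told apart in bulk hyphae. Of 11 conidial marker genes, 6 were listed at 6 h, none at 24 h and 2 at 48 h. Their summed RPKM at 6 h was 941 to 1395 in BaP and 399 to 468 in DMSO, and at 48 h 430 to 676 and 82.7 to 367. At 6 h 5 of the 6 rose, where 63.6% of all listed genes did. *abaA* was lower in BaP, at a mean of 0.731 RPKM against 1.71 in DMSO, and did not pass the limit. The sum at 6 h was mostly *catA* and *conF*, with BaP means of 632 and 380 RPKM. At 48 h *conF* rose and *yA* did not pass. The part of conidial cells in the results was not tested, and none of the 4 hyphal markers was listed.

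Members were drawn from these 3 tables, so each is listed at least once by construction. Of the 62 nucleolar genes, 3 were listed at 6 h, 33 at 24 h and 60 at 48 h. There were 31 listed at both 24 and 48 h, 28 at 48 h alone and 2 at 24 h alone. Of the 12 small-subunit members, 11 were listed at 24 h and 12 at 48 h. The large subunit went from 8 to 15 of 15, rRNA modification from 2 to 6 of 6, and the sole polymerase I member appeared at 48 h only. Mitochondrial ribosome genes were listed in similar number at both times, 10 and 12 of 13. Over all genes, 1503 were listed at 24 h and 1529 at 48 h.

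At 24 h, 47 of the 55 listed members rose and 2 fell, where 41.5% of all 1503 listed genes rose and 32.6% fell. Without the nonribosomal peptide synthetases, 46 of 50 rose and 1 fell. All 11 small-subunit members rose, by log2 fold changes of 1.12 to 2.26 with a median of 1.57, and so did all 8 large-subunit members, by 1.10 to 2.35 with a median of 1.57. Both listed members of rRNA modification rose, as did 10 of 11 with no stated step (median 1.20), 9 of 10 of the mitochondrial ribosome (median 1.17) and the export factor *mexA*. The median over all listed genes was -0.19. These calls were fragile. Without library B22, B24 or D25, 0 of the 55 members passed in limma, with lowest adjusted p-values of 0.0576, 0.0624 and 0.0626 and with 25, 26 and 34 members at an unadjusted p under 0.05. In each of those fits 1 of all 1503 genes passed. All 33 nucleolar genes kept a positive fold change in every fit with a library left out. This was largely fixed beforehand, since they were listed on these libraries and had log2 fold changes of 0.95 to 2.35. With all libraries, 49.8% of all listed genes had a positive fold change. On recovered reads, limma-voom called 55 of 55 members, where it called 98.5% of all 1469 genes with recovered reads.

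At 48 h, 68 of the 84 listed members rose and 3 fell, where 40.9% of all 1529 listed genes rose and 43% fell. Without the peptide synthetases, 65 of 78 rose and 2 fell. The small subunit had 10 of 12 risen (median 1.68), the large subunit 14 of 15 (median 1.49), rRNA modification 4 of 6 (median 1.19) and the genes with no stated step 22 of 24 (median 1.54). None of the 60 nucleolar genes fell, and the 9 that did not pass had log2 fold changes of 0.91 to 0.99, just under the limit. The median over all listed genes was -0.56. With 1 library left out, 58 to 80 of the 84 members passed, where 70.6% to 91.8% of all listed genes did.

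**Figure D1:**
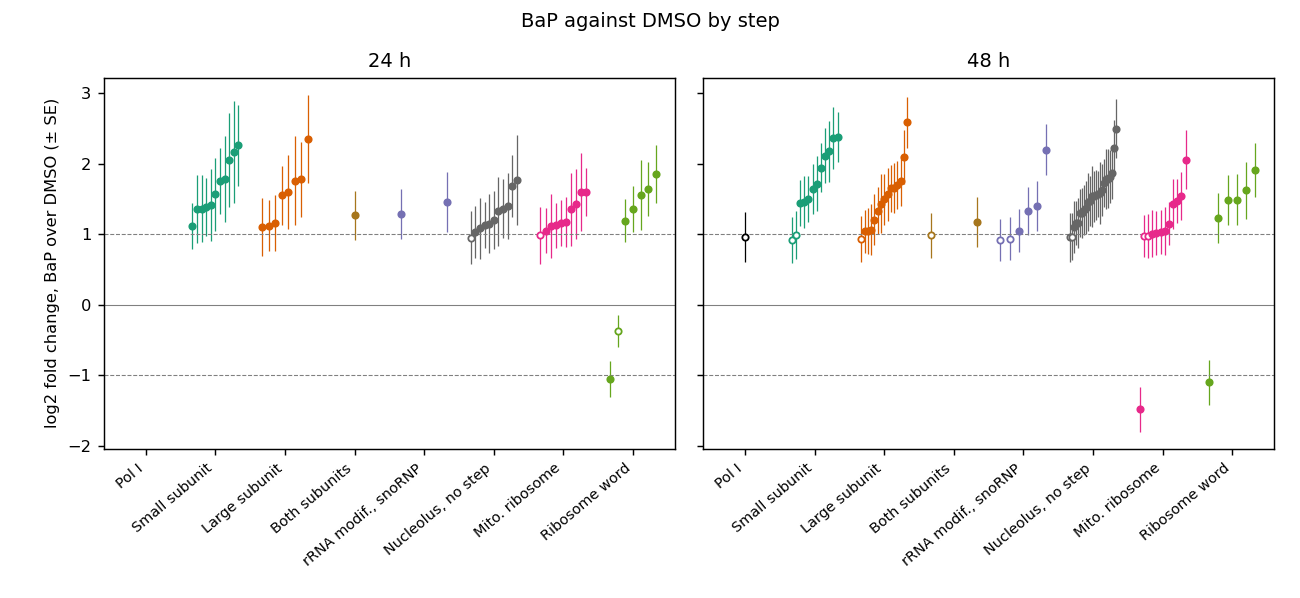
Log2 fold change of BaP over DMSO with its standard error for each member, by step, at 24 h (left) and 48 h (right). Filled points passed the threshold, open points did not, and dashed lines mark 1 and -1. Nucleolar classes lie between 0.91 and 2.59, and the 3 filled points below 0 are AN3955 at 24 h and AN6297 and AN3459 at 48 h.

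Class medians at 48 h ran from 0.96 to 1.68, and differences between steps were not tested. Polymerase I transcription was represented by AN3944 (chromosome II, 2567073 to 2570483, positions as the files give them, with no build named), whose orthologues bind ribosomal DNA. Its RPKM was 3.77, 5.96 and 10.1 in BaP and 2.69, 2.30 and 3.09 in DMSO. The groups did not overlap, but the log2 fold change of 0.96 ± 0.35 (SE, n = 3) stayed under the limit (limma adjusted p = 0.0169), and was 1.25 without B28 and 1.04 without D33, both past it. AN3944 was also the most weakly expressed of the nucleolar genes named here, at 48 h.

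In the small subunit, AN6171 (chromosome I, 1023838 to 1024815), assigned to the Mpp10 complex of the processome, had the largest rise at both times. At 24 h its RPKM was 102, 20.5 and 91 in BaP and 11.4, 10.02 and 12.6 in DMSO. The 48 h values were 46.2, 91.6 and 109 in BaP and 15, 11.7 and 15.9 in DMSO. The DMSO cultures stayed close together while the BaP cultures spread widely, with 1 low culture at each time. The log2 fold changes were 2.26 ± 0.58 (SE, n = 3, limma adjusted p = 0.0157) and 2.38 ± 0.36 (limma adjusted p = 7.57e-04).

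The large subunit's leading gene was AN7674 (chromosome IV, 2338344 to 2339321), a component of large-subunit precursors and the member with the largest rise of all at 24 and 48 h. At 24 h it stood at 139, 23.3 and 102 RPKM in BaP and 10.2, 12.1 and 16.8 in DMSO. At 48 h it stood at 65.2, 101 and 134 in BaP and 12.5, 12.2 and 22.5 in DMSO. The same BaP cultures, B23 and B28, were the low ones as for AN6171. It rose by 2.35 ± 0.62 on the log2 scale at 24 h (SE, n = 3, limma adjusted p = 0.0159) and by 2.59 ± 0.36 at 48 h (limma adjusted p = 5.27e-04). Among large-subunit members listed at both times, *nsa2* had the second highest BaP mean at 48 h. Its DMSO cultures were almost equal at 24 h, at 18.8, 18.8 and 19.1 RPKM, against 64.8, 23 and 54.7 in BaP (log2 fold change 1.16 ± 0.39). At 48 h *nsa2* gave 25.5, 24.1 and 23.9 in DMSO and 41.6, 74.7 and 81.1 in BaP (log2 fold change 1.33 ± 0.33).

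For rRNA modification, AN10712 has domains with predicted pseudouridine synthase and snoRNA-binding activity. It is assigned by them to the H/ACA class of snoRNP, which guides pseudouridylation. It gave 82.4, 36.7 and 82.6 RPKM in BaP and 26.9, 25.5 and 23.3 in DMSO at 24 h. The 48 h values were 65.9, 95.1 and 96.7 in BaP and 23.8, 30.7 and 48.9 in DMSO. It rose at both times (log2 fold change 1.29 ± 0.35 and 1.33 ± 0.34). AN0728, with a predicted snoRNA-binding domain, was the other member of this class listed at both times and was far weaker, at 13.6, 3.67 and 9.56 RPKM in BaP and 1.94, 2.11 and 2.85 in DMSO at 24 h. At 48 h AN0728 stood at 6.41, 9.74 and 16.2 in BaP and 3.69, 2.79 and 3.19 in DMSO. Its low BaP cultures were again B23 and B28, and its log2 fold changes were 1.45 ± 0.42 and 1.40 ± 0.35.

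Among genes acting on both subunits, AN5875, tied to the cleavage that separates the precursors of the subunits, was listed at 48 h only. Its RPKM was 35.5, 53.7 and 63.3 in BaP and 27.4, 21.8 and 24.5 in DMSO. The groups did not overlap, and the log2 fold change of 0.98 ± 0.32 fell short of the limit, and was 1.22 without B28 and 1.06 without D31, both past it. *mexA*, an exporter of mRNA and of both subunits, behaved otherwise and is described with the 6 h genes.

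Among the genes with no stated step that were listed at both 24 and 48 h, AN0097 and AN7205 had the highest BaP levels at 48 h. AN0097 is described as part of the DNA ligase IV complex, which repairs double-strand breaks, and its nucleolar entry is a location. At 48 h AN0097 stood at 63.7, 63.1 and 67.1 RPKM in BaP and 18.8, 20.2 and 43.7 in DMSO (log2 fold change 1.31 ± 0.35). At 24 h AN0097 stood at 66.5, 39.1 and 48.8 in BaP and 20.6, 31.6 and 17.2 in DMSO (log2 fold change 1.13 ± 0.32, and 0.95 without D27, under the limit). For AN7205, which binds unfolded protein and acts in ribosome biogenesis, the 24 h values were 42.2, 13.7 and 35.5 in BaP and 13.6, 11.2 and 11 in DMSO. At 48 h AN7205 gave 24.2, 43.7 and 58.6 in BaP and 12.9, 14.8 and 17.5 in DMSO (log2 fold changes 1.15 ± 0.42 and 1.35 ± 0.35). AN7205 had its spread among BaP cultures, whereas AN0097 had its spread among DMSO cultures at 48 h.

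**Figure D2:**
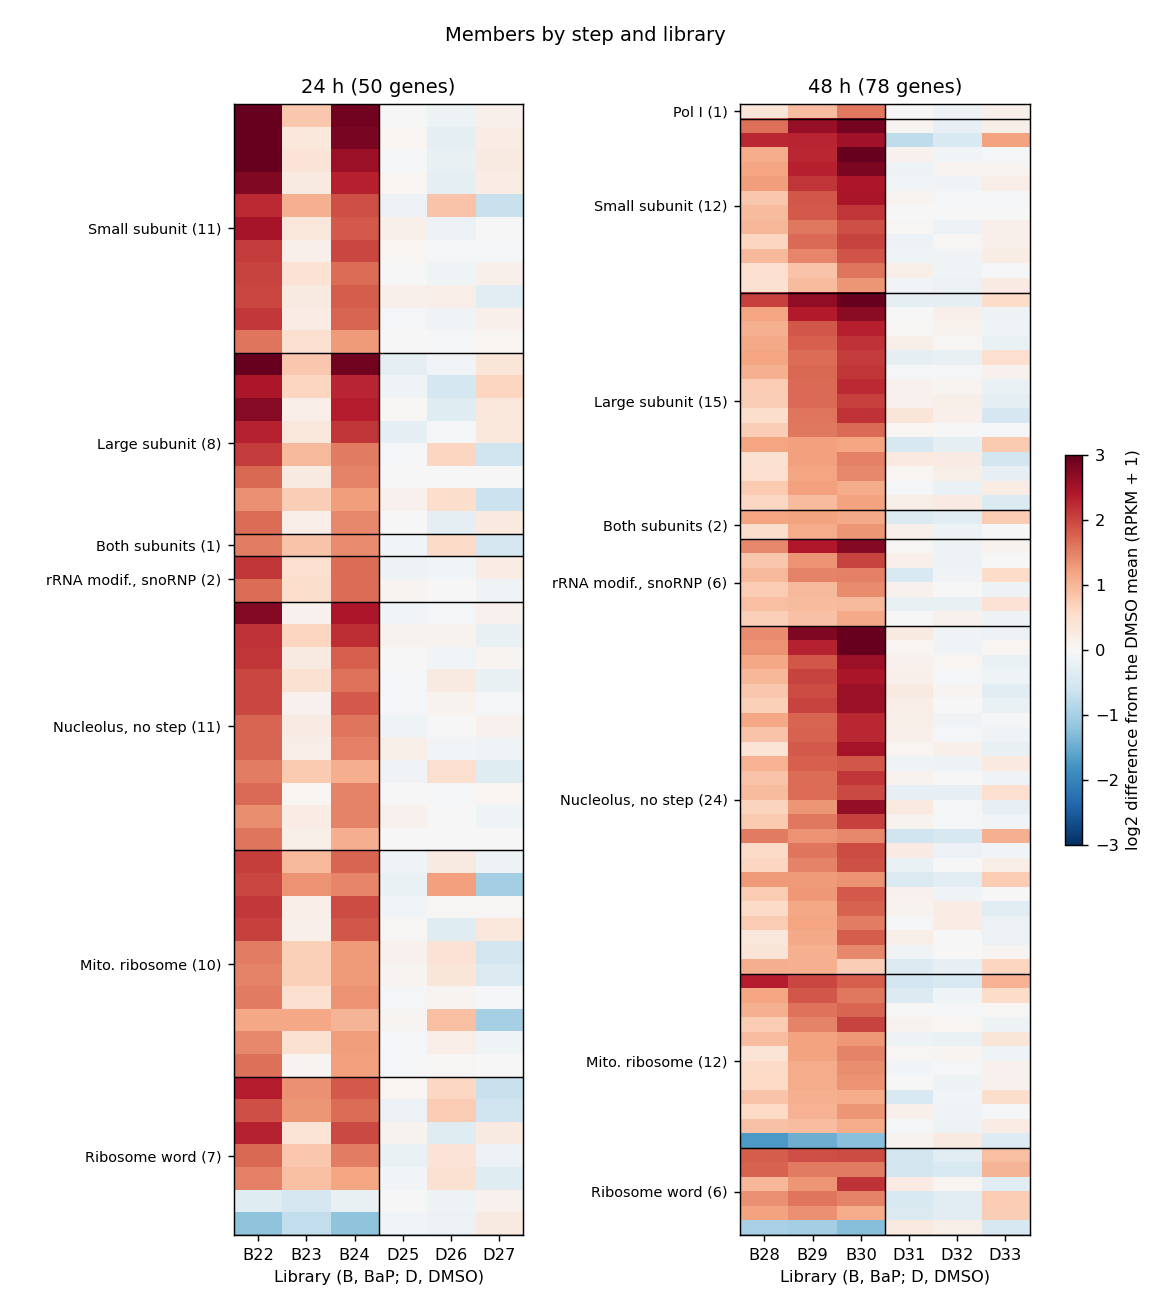
Log2 difference of each library from the gene's own DMSO mean, log2(RPKM + 1), for the 50 members listed at 24 h (left) and the 78 at 48 h (right), without the nonribosomal peptide synthetases. Rows are genes ordered by step and by the mean of the BaP columns, and the number of genes is given after each step. The columns of B23 at 24 h and of B28 at 48 h are paler than those of the other BaP cultures in the nucleolar classes, while D26 is the highest DMSO culture in 9 of 33 nucleolar rows and D33 in 26 of 60.

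The nucleolar genes shared a pattern across cultures. The words that chose members did not use it, but the genes were listed on the values of these same libraries. The pattern is therefore not independent of the choice. At 24 h, B23 was the lowest BaP culture for 33 of 33 nucleolar genes, and at 48 h, B28 was the lowest for 56 of 60. B23 was often the lowest outside them too. Among the 698 listed non-members with a positive fold change at 24 h, B23 was the lowest BaP culture for 557 (79.8%). Among the 677 such genes at 48 h, B28 was the lowest for 266 (39.3%). The nucleolar genes' median log2 difference from the DMSO mean at 24 h was 2.10 in B22, 0.34 in B23 and 1.74 in B24. At 48 h it was 0.86 in B28, 1.60 in B29 and 2.02 in B30. In DMSO the medians stayed between -0.06 and 0.05 at both times. The BaP cultures were thus far more spread for these genes than the DMSO cultures.

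Those non-members are set beside them for comparison and called the other upward genes, whether or not they passed the threshold. At 24 h their medians were 1.51, 1.00 and 1.33 in B22, B23 and B24, and -0.01, 0.58 and -0.55 in D25, D26 and D27. At 48 h they were 1.23, 1.37 and 1.32 in B28, B29 and B30, and -0.38, -0.23 and 0.59 in D31, D32 and D33. The spread of these genes lay among DMSO cultures, with D26 and D33 raised. D26 was the highest DMSO culture for 575 of 698 other upward genes and for 9 of 33 nucleolar genes, and D33 for 589 of 677 and for 26 of 60. This is a description with no test, and the pattern was noticed in the values before it was counted.

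**Figure D3:**
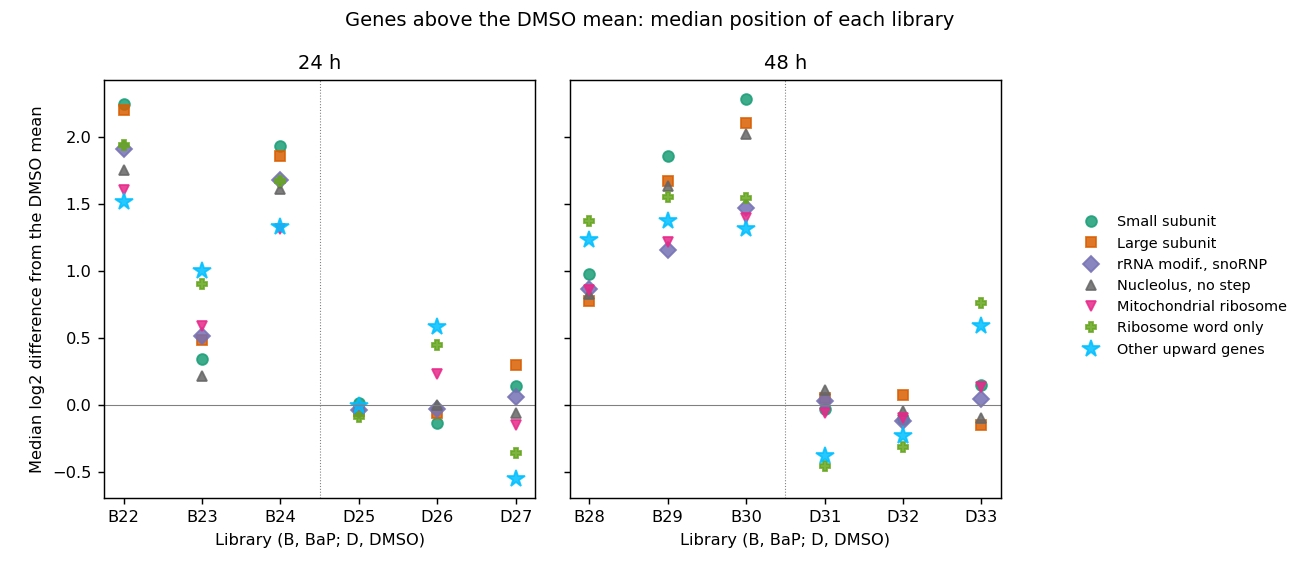
Median log2 difference of each library from the gene's DMSO mean, log2(RPKM + 1), for genes above the DMSO mean, by class, at 24 h (left) and 48 h (right). B23 lies near the DMSO cultures for small-subunit and no-step genes (0.34 and 0.22) and at 1.00 for the 698 other upward genes, whose D26 lies at 0.58.

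Measured as a standard deviation (SD) of log2(RPKM + 1) over 3 cultures, the nucleolar genes had a median of 0.89 in BaP and 0.20 in DMSO at 24 h, and 0.58 and 0.19 at 48 h. Other upward genes had 0.27 and 0.58 at 24 h, and 0.22 and 0.53 at 48 h. The SD was larger in BaP than in DMSO for 28 of 33 nucleolar genes at 24 h and 51 of 60 at 48 h, where this held for 31.6% of the 748 and 32.5% of the 756 genes with a positive fold change. With a pseudocount of 0.1 the counts were 28 and 50, and with 5 they were 29 and 51. In depth, B23 held 9.43 M reads, B22 9.51 M and B24 8.17 M. B28, at 5.97 M, was the smallest of all libraries, beside 6.78 M for B29 and 7.27 M for B30, and the part of depth was not tested. The nucleolar genes were also weaker in DMSO than the other upward genes, with median RPKM of 10.1 against 22.5 at 24 h, and 11.3 at 48 h, again below the others.

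**Figure D4:**
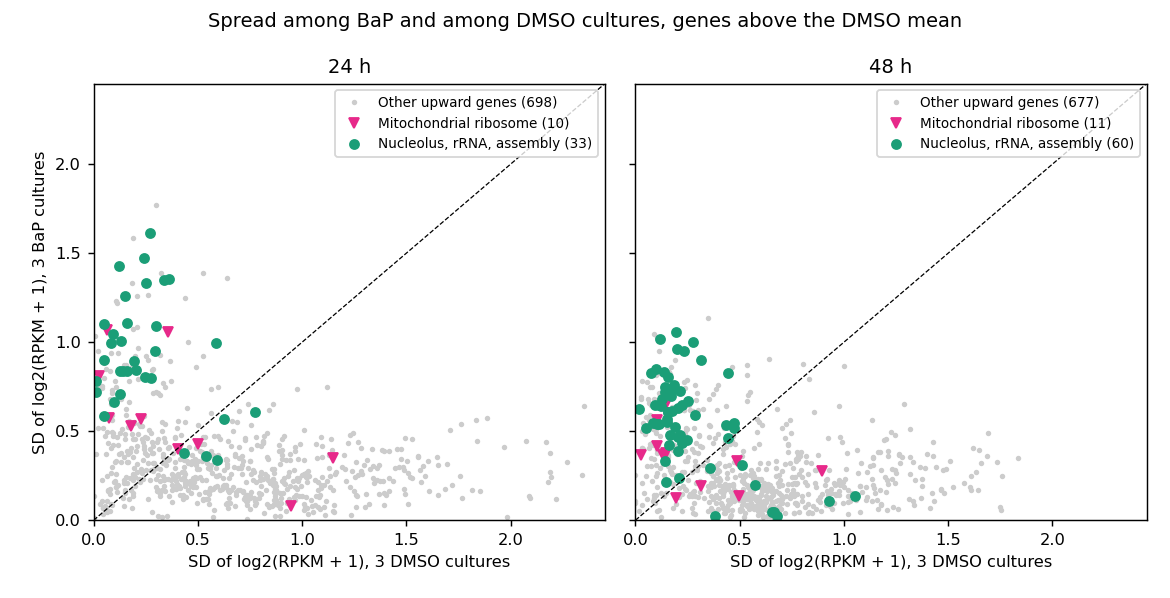
SD of log2(RPKM + 1) among the 3 BaP cultures against that among the 3 DMSO cultures, for each gene above the DMSO mean, at 24 h (left) and 48 h (right), with a dashed line of equality. Of the nucleolar genes, 28 of 33 and 51 of 60 lie above the line, and most other upward genes lie below it.

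Without B23, the 33 nucleolar genes had a median log2 fold change of 1.92 at 24 h, against 1.38 with all libraries. Without B28, the 60 genes of 48 h had 1.83, against 1.48. With B23 and D26 both left out, 51 of 55 members passed at 24 h, where 87.6% of all listed genes did. With B28 and D33 both left out, 81 of 84 passed at 48 h, where 93.5% of all listed genes did, including AN3944 at a log2 fold change of 1.33 and AN5875 at 1.22. These paired omissions were chosen after the values had been seen.

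A few members did not follow the nucleolar pattern in spread, and the 4 ribosome-related members listed at 6 h were among them. At 24 and 48 h their spread was larger among DMSO cultures. B23 was still the lowest BaP culture at 24 h for the 3 of them listed then. AN4161 among them is named only for ribosomes and is outside the nucleolar classes. AN5340 (chromosome V, 3100305 to 3101681), tied to cleavage in the 5' external spacer of the precursor rRNA, was the largest rise at 6 h. Its RPKM at 6 h was 13.6, 14.9 and 12.6 in BaP and 3.97, 5.34 and 3.85 in DMSO. The 6 h groups were tight and far apart (log2 fold change 1.45 ± 0.17, SE, n = 3, limma adjusted p = 4.13e-07). At 24 h AN5340 gave 94.8, 41.4 and 76 in BaP and 16.9, 35.2 and 11.6 in DMSO. At 48 h it gave 83.4, 85.3 and 99.1 in BaP and 9.40, 11.9 and 39.4 in DMSO. Its DMSO cultures D26 and D33 stood well above the others, and B28 was level with B29. It rose by 1.75 ± 0.47 and 2.36 ± 0.44 on the log2 scale.

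*mexA* (chromosome VI, 2975836 to 2978471) gave 26, 33.3 and 24.8 RPKM in BaP and 10.6, 11.2 and 12 in DMSO at 6 h. It gave 81.9, 50.8 and 75.6 in BaP and 26.3, 41.6 and 19.3 in DMSO at 24 h. At 48 h the BaP cultures were nearly equal at 88.6, 91.2 and 85.5, and the DMSO cultures were at 28.6, 30.2 and 66.4. The high DMSO culture was D26 at 24 h and D33 at 48 h. The log2 fold changes were 1.23 ± 0.17, 1.27 ± 0.35 and 1.17 ± 0.35 at 6, 24 and 48 h, and the last was 0.96, under the limit, without D31.

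AN1452, known only for a nucleolar location, gave 14.1, 17.6 and 17.9 RPKM in BaP and 5.25, 8.55 and 5.05 in DMSO at 6 h (log2 fold change 1.29 ± 0.19). It was not listed at 24 h. At 48 h AN1452 stood at 53, 45.5 and 48.8 in BaP and 11.1, 12.1 and 37.3 in DMSO (log2 fold change 1.45 ± 0.41). Here too D33 alone approached the BaP cultures.

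AN4161, placed at ribosomes and in the nucleus, gave 39.8, 51.1 and 44.9 RPKM in BaP and 16.2, 21.5 and 17.3 in DMSO at 6 h. It gave 141, 91.2 and 117 in BaP and 31.8, 61.5 and 23.6 in DMSO at 24 h, then 143, 123 and 123 in BaP and 28, 29.8 and 84.3 in DMSO at 48 h. AN4161 rose at all 3 times (log2 fold change 1.26 ± 0.17, 1.64 ± 0.38 and 1.62 ± 0.40). At 6 h, 63.6% of the 703 listed genes rose and 10.4% fell, so 4 of 6 members risen is close to the table as a whole. Over these 4 members the median log2 difference of D33 at 48 h was 1.04, and the SD was larger in DMSO than in BaP for 4 of 4.

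**Figure D5:**
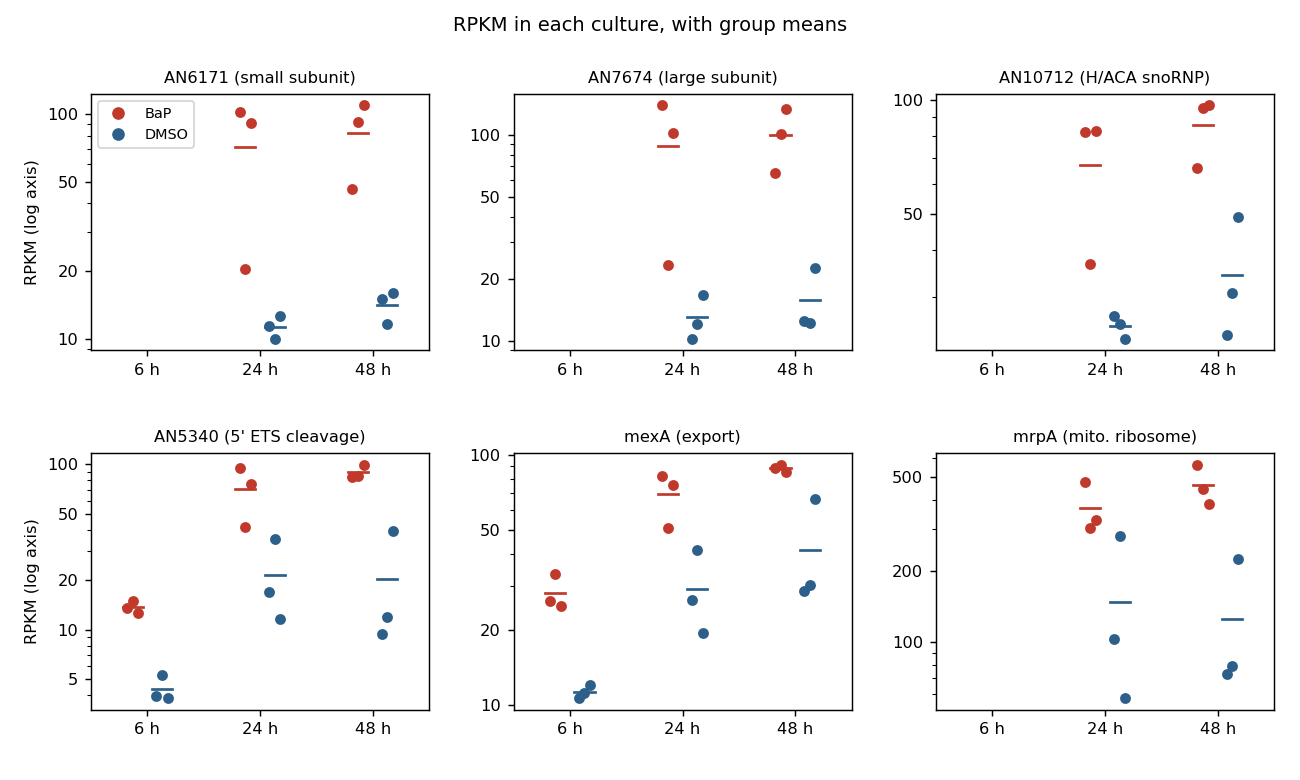
RPKM in each culture (log axis) at the times a gene is listed, BaP in red and DMSO in blue, with bars at group means. In the upper row (AN6171, AN7674 and AN10712) the BaP cultures carry 1 low value at each time, down to 20.5 for AN6171 at 24 h. In the lower row (AN5340, *mexA* and *mrpA*) the DMSO cultures carry 1 high value at 24 and 48 h, up to 282 for *mrpA*. The rows are not cleanly split. D33 is also high for AN7674 and AN10712 at 48 h, and B23 is low for AN5340 and *mexA* at 24 h. For AN10712 at 48 h the SD of log2(RPKM + 1) is 0.31 in BaP and 0.51 in DMSO.

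Members of the mitochondrial ribosome held both patterns across cultures. At 48 h 9 of 12 members rose and 1 fell, where 40.9% of all listed genes rose and 43% fell. Their median log2 fold change was 1.04. *mrpA* (chromosome I, 614104 to 615180), a putative L16 protein, had the highest level of all members, at 477, 303 and 328 RPKM in BaP and 103, 282 and 57.8 in DMSO at 24 h. At 48 h *mrpA* stood at 563, 444 and 383 in BaP and 73.1, 79 and 224 in DMSO. D26 lay close to the BaP cultures, and D33 was well above the other DMSO cultures. The log2 fold changes were 1.60 ± 0.55 and 2.06 ± 0.41, and the first, 1.72 without B23, then missed the p threshold. AN10161, a small-subunit protein of that ribosome, gave 229, 106 and 182 in BaP and 49.6, 64.4 and 48 in DMSO at 24 h, and 174, 276 and 229 in BaP and 56.9, 68.5 and 110 in DMSO at 48 h. It carried a low B23 and B28 as well as a high D26 and D33. The SD was larger in BaP for 6 of 10 members at 24 h and 6 of 11 with a positive fold change at 48 h.

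AN6297 (chromosome I, 623115 to 624521) was the exception in direction. It is described with copper ion binding, aerobic respiration and assembly of protein complexes, and the mitochondrial ribosome is one of several locations. At 48 h it was at 10.8, 12.9 and 15.1 RPKM in BaP and 40.6, 45.7 and 28.6 in DMSO. Every BaP culture lay below every DMSO culture, and it fell by 1.48 ± 0.31 on the log2 scale (SE, n = 3, limma adjusted p = 0.00191).

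Among the 8 members named only for ribosomes as a place, 5 of 7 rose and 1 fell at 24 h, and 5 of 6 rose and 1 fell at 48 h. The shares of all listed genes were 41.5% risen and 32.6% fallen at 24 h, and 40.9% and 43% at 48 h. AN1662 was the most abundant, at 424, 212 and 294 RPKM in BaP and 84.5, 127 and 50.6 in DMSO at 24 h. At 48 h AN1662 stood at 344, 375 and 381 in BaP and 65.6, 75.8 and 182 in DMSO (log2 fold change 1.86 ± 0.41 and 1.91 ± 0.38). AN6530, an acyltransferase of phospholipid synthesis, gave 158, 104 and 125 in BaP and 51.6, 75.3 and 42.7 in DMSO at 24 h, and 140, 157 and 132 in BaP and 44.3, 48.4 and 102 in DMSO at 48 h. Both had their high DMSO culture at D26 and D33.

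The falling members of this class act in other processes. AN3955, found in stress granules, was listed at 24 h only, at 28.8, 40.3 and 28.9 RPKM in BaP and 64.3, 59.6 and 81.4 in DMSO, and fell by 1.05 ± 0.26 on the log2 scale (by 0.92, not past the limit, without D27). AN3459, a peptidase of glutathione breakdown, was listed at 48 h only, at 83.1, 80.5 and 66.9 in BaP and 202, 186 and 119 in DMSO, and fell by 1.09 ± 0.32 (-0.9995 without B30 and -0.95 without D31, neither past the limit). Neither gene's groups overlapped.

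The nonribosomal peptide synthetases moved in both directions and at mostly low levels. At 48 h 3 of 6 rose and 1 fell, where 40.9% of all listed genes rose and 43% fell. At 24 h 1 of 5 rose and 1 fell, where 41.5% and 32.6% did. Counts this small do not set the class apart from the listed genes. AN10297, a related enzyme, gave 49.8, 80.6 and 57.5 RPKM in BaP and 17.6, 31.6 and 12.6 in DMSO at 24 h, and 39.96, 42 and 29.5 in BaP and 9.42, 12.6 and 24.1 in DMSO at 48 h. AN10486 gave 4.82, 10.4 and 6.76 in BaP and 17.4, 16.1 and 15.8 in DMSO at 24 h, and 7.82, 6.46 and 4.90 in BaP and 15.7, 14.4 and 12.3 in DMSO at 48 h. AN10297 rose and AN10486 fell at both times, though AN10486 at 48 h fell by 0.89 without B30 and 0.97 without D31, short of the limit. At 6 h *ivoA*, needed for conidiophore pigment, was at 0.618, 0.878 and 0.462 in BaP and 0.228, 0.318 and 0.207 in DMSO. *inpB* was at 0.117, 0.0449 and 0.0780 in BaP and 0.240, 0.110 and 0.234 in DMSO. Neither passed the threshold on log2(RPKM + 1), where the pseudocount shrinks such low values, and limma-voom on recovered reads called *ivoA* up (1.33) and *inpB* down (-1.22).

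The BaP and DMSO cultures did not overlap for 28 of 33 nucleolar genes at 24 h and 60 of 60 at 48 h, beside 93.7% and 99.7% of all listed genes. The nucleolar genes that overlapped at 24 h were AN0074, AN0310, AN10173, AN10943 and AN8247, and the mitochondrial AN6149 overlapped too. With 3 cultures against 3, an exact two-sided permutation test cannot give a p below 0.1.

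The 24 and 48 h tables share a scale, since 1 gene length fits the values of all libraries for 898 of the 915 genes in both, and 48 members, 31 of them nucleolar and 3 of them peptide synthetases, could be compared over time. In DMSO, 0 of 48 members differed between 24 and 48 h in limma, where 3.39% of the 915 genes did, and 1 member had an unadjusted p under 0.05, the peptide synthetase *acvA*. In BaP, 0 of 48 differed, where 4.37% of genes did, and 0 had an unadjusted p under 0.05. Directions leaned upwards in both: 28 of 31 nucleolar genes were higher at 48 h in DMSO, with a median log2 difference of 0.24, and 30 of 31 in BaP, with a median of 0.37, where 51.9% and 47.9% of the 915 genes were higher. The lean in BaP rested on B23: without it 8 of 31 nucleolar genes were higher at 48 h, with a median of -0.22, where 43.3% of all genes were higher. Without B30 it was 23 of 31, with a median of 0.11, and with any other library left out at least 30 of 31. In DMSO, 24 to 29 of 31 were higher with 1 library left out. The standard errors of these genes ran from 0.33 to 0.61, and the lean of the list was not tested.

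The effect of BaP itself was not shown to change from 24 to 48 h. In the interaction of BaP and time, 0 of 48 members passed in limma and 0 had an unadjusted p under 0.05, where 0 of 915 genes passed and 1.86% had such a p. The nucleolar genes had a median interaction of 0.07 on the log2 scale, with values from -0.20 to 0.60 and standard errors from 0.47 to 0.86. The median was -0.47 without B23, with 1 of 31 genes positive, -0.20 without B30, and up to 0.40 without B22, and 0 members passed in each of these fits. The highest was AN5340, at 0.60 ± 0.71 (SE). No other tool was run for these contrasts. The 28 nucleolar genes listed at 48 h alone have no value at 24 h and were not tested for a change over time.

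Neighbouring steps of gene expression were taken by words in the descriptions, without the members. Beside them, 41.5% of all listed genes rose and 32.6% fell at 24 h, and 40.9% and 43% at 48 h. The tRNA-related genes and the helicases moved mostly upwards. Of tRNA-related genes, 8 of 11 rose at 24 h and 10 of 10 at 48 h, with medians of 1.09 and 1.23. Of helicases, 4 of 5 and 7 of 7 rose. Of RNA polymerase II and III genes, 3 of 5 rose and 1 fell at 24 h, and 4 of 7 rose and 2 fell at 48 h. Translation factors were few, with 1 of 1 risen at 24 h and 0 risen and 1 fallen of 3 at 48 h. Other mitochondrial genes were mixed, with 50 of 65 risen and 6 fallen at 24 h and 37 of 54 risen and 12 fallen at 48 h. The SD was larger in BaP than in DMSO for 23 of 65 and 5 of 54 of these mitochondrial genes, and for 3 of 5 and 6 of 7 helicases.

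The 10 genes that match the search words but were left out for an exclusion word, all of them for farnesol, include orthologues of Nop1, Nhp2 and Nop58 of *S. cerevisiae*, core snoRNP proteins. All 6 listed at 24 h and all 8 at 48 h rose, with medians of 1.24 and 1.62. Of all listed genes, 41.5% and 40.9% rose at those times. The SD of these genes was larger in BaP than in DMSO for 5 of 6 at 24 h and 7 of 8 at 48 h. Its medians were 0.85 in BaP and 0.14 in DMSO at 24 h, and 0.56 and 0.11 at 48 h. The wide BaP spread was thus not particular to the members, and these genes are counted among the other upward genes.

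The members were spread over all 8 chromosomes, from 5 on chromosome V to 20 on chromosome VIII, which were 2.01% and 5.28% of the listed genes there. Of the 83, 81 were matched to a RefSeq gene order of assembly ASM1142v1, and 0 pairs lay directly side by side. On chromosome VIII, AN10058 and AN0360, and AN0310 and AN10052, were each separated by 1 gene.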

How the data were processed

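RNA was polyA-selected and sequenced from strand-specific libraries. Per the labels, the authors' processing named FastQC, Subread, featureCounts, limma and Cufflinks, and versions and genome build are not given in the sources used here. The authors deposited 1 table per time point, restricted to genes they kept, with 6 RPKM columns. The unit is inferred, because the values resolve to whole reads over 1 length per gene and 1 size per library (tolerance 0.06) for 626 of 703, 1469 of 1503 and 1501 of 1529 genes. The authors' mean, fold change and p-value columns were not used. Columns name treatment and time but no replicate number, so cultures were unpaired, and 0 per-sample columns were left out.

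Values were log2(RPKM + 1), and linear models were fitted with limma 3.58.1 (R 4.3.3) over all genes of a table (6 libraries), or over the 915 genes of both later tables (12 libraries), with Benjamini-Hochberg adjustment. On reads simulated for the 24 h comparison, the test called 182 of 200 genes changed 4-fold and 0 others of 1469. The simulation gave both groups the same dispersion and left most genes unchanged. The nucleolar genes at 24 h had median SDs of 0.89 in BaP and 0.20 in DMSO, so these rates do not describe the test for them. Alternatives were pseudocounts of 0.1 and 5, a mean RPKM of at least 5, an eBayes trend, other thresholds, adjustment over the 10516 RefSeq genes, each library left out, and limma-voom. Python 3.11.15, pandas 2.3.3, numpy 2.4.6 and matplotlib 3.10.9 did the rest.

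Members and lists were chosen with earlier results of these data known. Step classes were first set by words and then reset after reading the descriptions, because 17 members matched several classes, 13 of them with the name of the tricistronic precursor transcript in the description. Named genes were the largest rise and fall per time, per step the 2 highest BaP means at 48 h among members listed at 24 and 48 h (any listed member where there were fewer), members that fell in rising classes, and those listed at 6 h. Others were named after their values were seen.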

Additional observations from a re-analysis of the deposited data

How the results depend on the processing

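Counts of members past the threshold depended most on the 24 h table. The 49 called at 24 h became 24 of 55 with a pseudocount of 5 (38.5% of all listed genes), 19 with a log2 limit of 1.5 (20.7%), and 0 with a false discovery rate of 0.01 or adjustment over all RefSeq genes, where 1 of all listed genes passed, and 0 to 49 with 1 library left out. The 71 called at 48 h became 56 of 84 with a pseudocount of 5 (56.2% of all listed genes). They became 32 with a log2 limit of 1.5 (33.1%), and 58 to 80 with 1 library left out. The 4 called at 6 h became 2 of 6 with a pseudocount of 5 (51.4%) and 0 with a log2 limit of 1.5 (24.9%), and stayed at 4 with any library left out. For the contrasts over time and the interaction, 0 members were called under every alternative run, including each library left out. Without the peptide synthetases, a choice made after seeing the data, 4, 47 and 67 were called. No named gene changed direction under the alternatives run. Of their values under alternatives, 101 of 287 at 24 h lost the call, most of them under the settings that left 0 members called, as did 19 of 335 at 48 h and 6 of 88 at 6 h, while 1, 12 and 4 gained one. No paired analysis was possible because the columns carry no replicate numbers. The lowest single value of a nucleolar gene rested on 34 reads at 24 h and 45 at 48 h, and the choice of listed genes on these libraries, the inferred unit and 3 cultures per group limit every count.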
